A study of Mus musculus with 4 samples.

Results

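The BCL2 family decides at the mitochondrion whether a stressed cell dies, and 10 of its genes were followed in isolated mouse islets given cytoEV and in control islets. The 10 were found by symbol among the 24421 rows of the deposited table and all were present. They are 3 pro-survival genes (Bcl2, Bcl2l1 and Mcl1), 2 pro-death effector genes (Bax and Bak1) and 5 genes of the BH3-only class (Bad, Bid, Bik, Bcl2l11 and Bbc3). RNA was sequenced from pancreatic islets of wild type C57BL/6 mice in 2 libraries of islets that received cytoEV every day for 48 h and 2 libraries of islets labelled untreated. Both groups were cultured in RPMI with 11 mM glucose. By the title of the series, the vesicles under study are small extracellular vesicles of pro-inflammatory beta cells, though no label spells out cytoEV, and the control columns are headed Ctl_EV, so whether vesicles of another kind were given to control islets is not settled here. The age of the mice is not in the labels, nor is it said that the samples of a group are from different mice or dishes. The p-values therefore reflect the spread of these 4 samples alone, which may be technical.

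Proteins of this family share short BCL2 homology segments and act on the outer mitochondrial membrane. The pro-survival proteins hold BAX and BAK in check. BH3-only proteins, raised or activated by stress, either bind the pro-survival proteins or act on BAX and BAK directly, and BAX and BAK then form pores that release cytochrome c and start the caspase cascade. In rodent beta cells, the insulin-producing cells that make up most of an islet, several BH3-only proteins have been studied as mediators of death caused by inflammatory cytokines.

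None of the 10 members passed the test between cytoEV and control islets. Limma, a linear model fitted to log2(CPM + 1) over all genes, called 0 members higher and 0 lower at an adjusted p under 0.05, and 2 members, Bcl2l1 and Bid, had an unadjusted p under 0.05. CPM is reads per 1000000 reads of a library. EdgeR on the recovered reads called 0 members and DESeq2 called 1, Bcl2l1. Of the 12780 genes tested, limma called 6.67%, 3.16% higher and 3.51% lower, and 23.3% had an unadjusted p under 0.05, so 2 of 10 with an unadjusted p under 0.05 is near the background. EdgeR called 5.67% of all genes and DESeq2 12.4%. The 2 members nearest the threshold were Bcl2l1, the gene of the pro-survival protein BCL-XL, which was lower, and Bid, which links death receptors to the mitochondrion and was higher. Their promoters, from RefSeq on GRCm38.p6, are shown here because these are the 2 members with the smallest p, although neither passed. Each runs from 250 bases before to 50 bases after the transcript start, on the gene's own minus strand. Capitals mark the GC box GGGCGG, which the Bid window holds 3 times. Of the 3 Bcl2l1 windows in the table, the one at the outermost start is shown, and 0 of the 3 hold a GC box.
Bcl2l1, chr2:152831679-152831978: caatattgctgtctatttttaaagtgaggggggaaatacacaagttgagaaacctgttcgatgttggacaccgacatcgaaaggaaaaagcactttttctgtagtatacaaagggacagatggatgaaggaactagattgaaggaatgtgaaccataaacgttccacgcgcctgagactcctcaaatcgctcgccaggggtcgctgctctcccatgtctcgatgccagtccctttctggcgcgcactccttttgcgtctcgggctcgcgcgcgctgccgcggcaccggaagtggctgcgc
Bid, chr6:120916775-120917074: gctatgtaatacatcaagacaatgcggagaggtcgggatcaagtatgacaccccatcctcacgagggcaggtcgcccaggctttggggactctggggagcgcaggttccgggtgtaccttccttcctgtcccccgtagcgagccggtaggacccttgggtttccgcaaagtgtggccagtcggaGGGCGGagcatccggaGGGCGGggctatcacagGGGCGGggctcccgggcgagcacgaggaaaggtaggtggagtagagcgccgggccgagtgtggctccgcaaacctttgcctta

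Of the 10 members, 9 matched the RefSeq promoter table, with 15 windows in all, and the other is Bik. On either strand, 0 of the 15 windows held the STAT motif TTCNNNGAA, which 8.30% of all 32851 windows held, and 0 held the interferon factor motif, GAAA then 2 free bases then GAAA, which 3.44% held. The CRE motif TGACGTCA was in 0 of the 15 and in 1.79% of all. GC boxes (GGGCGG or its reverse complement) were in 10 of the 15, from 7 of the 9 members, and in 35.7% of all windows. The CCAAT motif was in 4 of the 15 and in 37.4% of all. The Bid window was 63.3% G and C, and the 3 Bcl2l1 windows were 49.3%, 55.7% and 52.3%, the last being the one printed. These matches describe letters in short windows, and no binding was measured.

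The 4 libraries held between 129726756 and 156183968 reads, and the fewest were in control replicate 1. They carried islet transcripts at high levels, with Ins2 between 122279 and 148695 CPM and Gcg between 19860 and 22515 CPM. Some markers of other cells were called lower or higher in limma. Those called lower were 3 of 3 tested acinar, 3 of 5 endothelial, 2 of 5 stellate (Col3a1 and Dcn), 1 of 4 Schwann (Cdh19), 1 of 2 tested duct (Muc1) and 1 of 8 macrophage markers (Cd14). Those called higher were 1 of 9 beta cell markers (Slc2a2) and 1 of 2 tested lymphocyte markers (Cd79a), and 0 alpha, delta or PP cell markers were called. The 9 acinar markers summed to 0.232 and 1.26 CPM in cytoEV islets, against 14.6 and 11.3 CPM in control islets, with Amy2a5 at 0 in all 4 libraries. The 5 endothelial markers summed to 26.0 and 26.8 CPM in cytoEV islets, against 37.7 and 38.8 CPM in control islets. The 5 stellate markers summed to 212.4 and 231.2 CPM in cytoEV islets, against 313.4 and 257.9 CPM in control islets. The sums of the 8 macrophage markers overlapped, with 288.7 and 298.0 CPM in cytoEV islets, against 301.7 and 296.4 CPM in control islets. Single macrophage markers went both ways. C1qa had 59.5 and 63.4 CPM in cytoEV islets, against 51.0 and 39.7 CPM in control islets. Lyz2 had 142.1 and 142.1 CPM in cytoEV islets, against 156.0 and 175.3 CPM in control islets. The 4 lymphocyte markers summed to 6.33 and 6.96 CPM in cytoEV islets and 4.54 and 4.06 CPM in control islets, with Cd3e and Cd3d at 0 in all. The part these cells have in the member values was not tested, and in bulk RNA fewer cells of a type and less RNA per cell cannot be told apart. The 2 control libraries also lay further apart (root-mean-square log2 difference 0.24) than the 2 cytoEV libraries (0.19).

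Bcl2l1 had the clearest separation among the pro-survival members. Its position is chr2:152780668-152831728, minus strand (GENCODE M21, GRCm38, as for all members). Its level was 47.1 and 45.2 CPM in cytoEV islets, against 61.7 and 57.3 CPM in control islets. Both cytoEV libraries lay below both control libraries, and the difference between the groups on the log2 scale was 3.42 times the larger of the differences within a pair. The ratio of the means was 0.776. The log2 change was -0.36 ± 0.09 (SE, n = 2 each) with a 95% interval of -0.57 to -0.15 and a limma adjusted p of 0.0556, so the gene did not pass. The call depended on the method. DESeq2 gave an adjusted p of 0.00677 and centring on the median 0.0454, whereas edgeR gave 0.0676 and the test with no filter on low values 0.106. Leaving out control replicate 1 gave a log2 change of -0.31, and leaving out control replicate 2 gave -0.41. Without cytoEV replicate 1 it was -0.39 and without cytoEV replicate 2 it was -0.33. In those fits the lone library is assumed to vary like the pair of the other group. BCL-XL and a shorter pro-death product arise from Bcl2l1 by alternative splicing, and a value per gene does not separate them.

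Mcl1, whose product is a short-lived pro-survival protein, was the pro-survival member with the most reads. At chr3:95658788-95663176, its level was 102.3 and 99.6 CPM in cytoEV islets, against 107.9 and 127.9 CPM in control islets. The groups did not overlap, but the control libraries lay further from each other than the groups did, and the lower one was near the cytoEV values. The log2 change was -0.22 ± 0.10 (SE, n = 2 each, 95% interval -0.45 to 0.01, limma adjusted p = 0.240). Without control replicate 1 the change was -0.34, and without control replicate 2 it was -0.10.

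Bcl2, the founding member of the family, was low in islets. From its locus at chr1:106538178-106714274, it gave 4.68 and 3.34 CPM in cytoEV islets, against 3.50 and 4.67 CPM in control islets, so the groups overlapped almost completely. The log2 change was -0.02 ± 0.17 (SE, 95% interval -0.41 to 0.37), or a ratio of CPM + 1 between 0.751 and 1.29, which is narrower than the ratio of CPM it stands for. The small change turned positive without control replicate 2 or cytoEV replicate 2. Each pair differed by more than counting error: the 95% Poisson intervals were 4.33 to 5.06 and 3.04 to 3.66 CPM in the cytoEV libraries and 3.19 to 3.84 and 4.33 to 5.02 CPM in the control libraries.

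**Figure D1:**
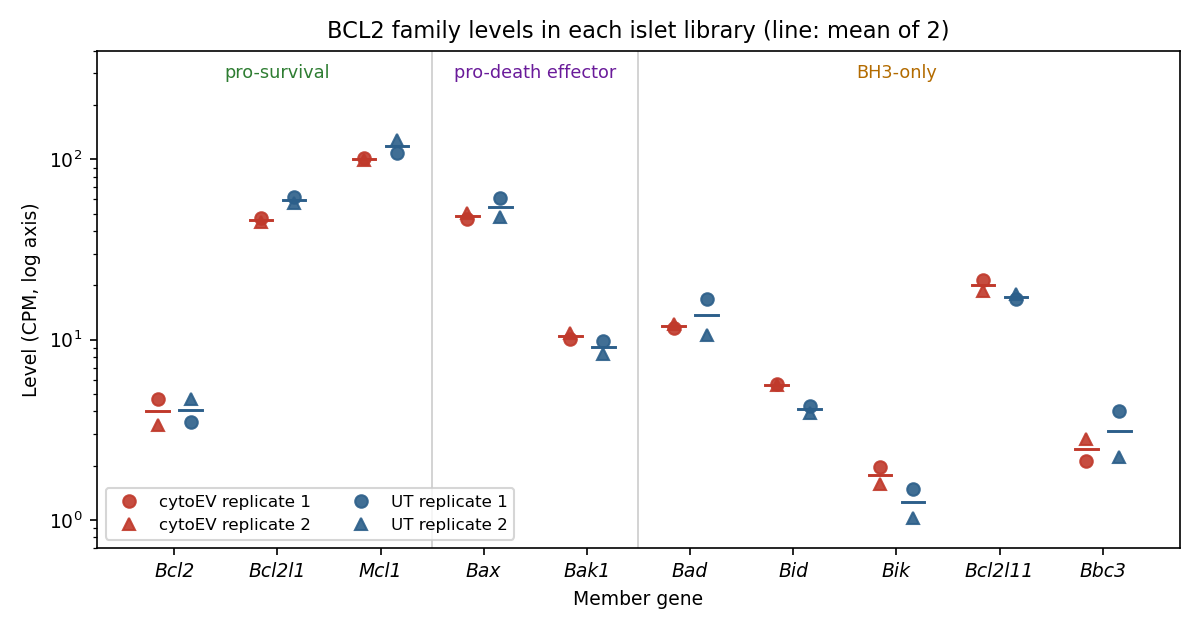
Level of each member gene in CPM (log axis) in the 4 libraries, with cytoEV replicates in red, control (UT) replicates in blue and a line at the mean of 2 in each group. Against the spread within pairs, the groups stand furthest apart for Bcl2l1 (lower in cytoEV islets) and Bid (higher in cytoEV islets). They also do not overlap for Mcl1, Bak1, Bik and Bcl2l11, and over all genes tested 53.9% did not overlap. Control replicate 1 lies above the other 3 libraries for Bax, Bad and Bbc3.

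The effector genes had changes of opposite sign and neither passed. Bax, at chr7:45461697-45466898, had 46.9 and 50.1 CPM in cytoEV islets, against 60.9 and 48.0 CPM in control islets. Only control replicate 1 was high, the other 3 libraries lay within 46.9 to 50.1 CPM, and the groups overlapped. The 2 control libraries differed by a ratio of 1.27, and their Poisson intervals of 59.5 to 62.2 and 46.9 to 49.1 CPM lay apart. For Bax the log2 change was -0.15 ± 0.12 (SE, 95% interval -0.43 to 0.12, limma adjusted p = 0.494). Without control replicate 1 it was 0.01, and without control replicate 2 it was -0.32, so the sign of the Bax change rested on 1 library.

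Bak1, which encodes the second pore-forming protein, lies at chr17:27019810-27029009. It had 10.02 and 10.9 CPM in cytoEV islets, against 9.84 and 8.36 CPM in control islets. The groups did not overlap, but cytoEV replicate 1 and control replicate 1 were nearly level. For Bak1 the log2 change was 0.19 ± 0.12 (SE, 95% interval -0.10 to 0.47, limma adjusted p = 0.412). Of the exon bases of Bak1, 25.5% also lie in Ggnbp1 on the opposite strand, and use of the strand in counting is not stated here. Ggnbp1 itself had 4.75 and 4.41 CPM in cytoEV islets and 5.41 and 4.49 CPM in control islets.

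Among the BH3-only genes, Bid, Bik and Bcl2l11 were higher in both cytoEV libraries than in both control libraries, without passing the test, and Bad and Bbc3 overlapped. Bid encodes a protein that caspase-8 cuts into an active form after death receptor signals. The gene is at chr6:120891930-120916853 and its level was 5.68 and 5.58 CPM in cytoEV islets, against 4.30 and 3.92 CPM in control islets. Each pair was close together and the groups stood apart, by 3.53 times the larger difference within a pair. The ratio of the means was 1.37 and the log2 change 0.37 ± 0.12 (SE, n = 2 each, 95% interval 0.10 to 0.64, limma adjusted p = 0.0996). EdgeR gave an adjusted p of 0.141 and DESeq2 0.107. The log2 change was 0.43 without control replicate 1 and 0.36 without cytoEV replicate 1. Of the exon bases of Bid, 17.7% lie in Bcl2l13 on the opposite strand. Bcl2l13, a more abundant relative of mixed role, had 79.7 and 79.3 CPM in cytoEV islets and 80.3 and 84.8 CPM in control islets, with a log2 change of -0.05.

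Bcl2l11 encodes BIM, which binds all the main pro-survival proteins. Its locus is chr2:128126038-128162547 and its level was 21.4 and 18.6 CPM in cytoEV islets, against 16.7 and 17.9 CPM in control islets. The lower cytoEV library was close to the higher control library, and the log2 change was 0.20 ± 0.11 (SE, 95% interval -0.06 to 0.45, limma adjusted p = 0.337). Bik, whose product sits largely at the endoplasmic reticulum, had the fewest reads of the 10, with no account taken of gene length. From chr15:83526862-83544634 it gave 272 and 215 reads in cytoEV islets, against 193 and 161 reads in control islets, or 1.97 and 1.58 CPM against 1.49 and 1.03 CPM. The groups did not overlap, but the Poisson intervals of cytoEV replicate 2 (1.38 to 1.81 CPM) and control replicate 1 (1.29 to 1.71 CPM) did. For Bik the log2 change was 0.30 ± 0.15 (SE, 95% interval -0.04 to 0.65, limma adjusted p = 0.274). EdgeR, on reads without that pseudocount, gave a log2 change of 0.49.

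Bad and Bbc3 followed the pattern of Bax, with 1 high control library. Bad encodes a BH3-only protein held inactive by phosphorylation downstream of growth factors. At chr19:6941861-6951899, its level was 11.7 and 12.2 CPM in cytoEV islets, against 16.8 and 10.6 CPM in control islets. The cytoEV values lay between the 2 control values, and the log2 change was -0.15 ± 0.19 (SE, limma adjusted p = 0.669). Gpr137, which shares 20.5% of the exon bases of Bad on the opposite strand, was also high in control replicate 1, with 15.2 and 16.0 CPM in cytoEV islets and 22.5 and 15.7 CPM in control islets. Bbc3 encodes PUMA, a BH3-only protein induced by p53 and by endoplasmic reticulum stress. At chr7:16308393-16318205, its level was 2.13 and 2.80 CPM in cytoEV islets, against 4.02 and 2.22 CPM in control islets, a ratio of 1.81 within the control pair. For Bbc3 the log2 change was -0.22 ± 0.21 (SE, 95% interval -0.70 to 0.25, limma adjusted p = 0.568). Without control replicate 1 the log2 changes of Bad and Bbc3 were 0.16 and 0.10, and without control replicate 2 they were -0.47 and -0.54. Control replicate 1 was the library with the fewest reads, and the part of depth in its values was not tested.

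**Figure D2:**
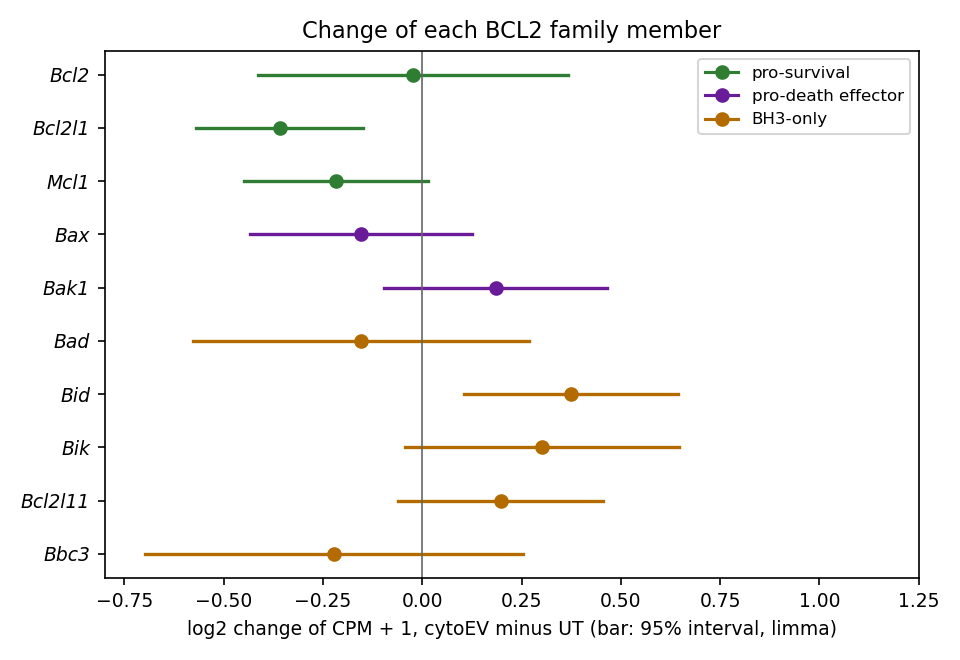
Log2 change of CPM + 1 (cytoEV minus UT) of each member, with the 95% interval from limma as a bar and the role as colour. The bars of Bcl2l1 and Bid exclude 0 before adjustment over all genes, and the other 8 include it.

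Counted by role, the 3 pro-survival members had negative log2 changes, with a median of -0.22, and the 5 BH3-only members had a median of 0.20, against 0.01 over all genes tested. Of the 7 pro-death members, 4 had positive and 3 negative changes. In 6 of the 10 members the groups did not overlap: 4 pro-death members (Bak1, Bid, Bik and Bcl2l11) were higher in cytoEV islets, and 2 pro-survival members (Bcl2l1 and Mcl1) were lower. Over all genes tested 53.9% did not overlap, 27.8% higher and 26.1% lower, so the count of 6 is near the background. With 2 samples a side, the smallest p that exact permutation allows for 1 gene is 0.333 (two-sided). The 10 changes lay between -0.36 and 0.37 on the log2 scale. On the scale of CPM + 1, which understates the change in CPM of low genes such as Bik and Bbc3, the 95% intervals of single members ran from a ratio of 0.617 (the lower end for Bbc3) to 1.56 (the upper end for Bid and Bik). Of the 50-base stretches of Bak1, Bad and Bid, 17.1%, 17.2% and 16.4% also occur in other genes, matched on either strand. Those genes are Ggnbp1, Gpr137 and Bcl2l13, the opposite-strand overlaps given above. Reads there could be counted to either gene if the counting ignored strand. For Bax 8.51% of the stretches and for Bcl2 5.25% also occur in other genes, and reads there could be counted to either. Of the exon bases of Bax, 12.2% also lie in Gm45808 on the same strand.

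Levels of different genes were compared per kb of exon (the union of all GENCODE exons). In cytoEV islets Bax had 30.8 ± 1.43 and Mcl1 29.5 ± 0.553 CPM per kb, in control islets 34.5 ± 5.78 and 34.5 ± 4.14 CPM per kb (SD, n = 2 each), so these 2 did not differ beyond their spread. Bcl2l1 came next with 10.1 ± 0.289 CPM per kb in cytoEV islets and 13.0 ± 0.679 CPM per kb in control islets. Bad had 4.65 ± 0.139 CPM per kb in cytoEV islets and 5.36 ± 1.74 CPM per kb in control islets, and Bak1 had 4.34 ± 0.257 and 3.78 ± 0.435 CPM per kb, so in control islets their difference was within the spread of Bad. Bcl2l11 had 2.49 ± 0.246 CPM per kb in cytoEV islets and 2.16 ± 0.102 CPM per kb in control islets. The next 3 genes were close: in cytoEV islets Bid had 1.58, Bbc3 1.16 and Bik 1.12 CPM per kb, and in control islets 1.16, 1.47 and 0.792 CPM per kb. Bbc3 overlapped Bik in cytoEV islets and Bid in control islets. Bcl2 was lowest, at 0.438 ± 0.103 CPM per kb in cytoEV islets and 0.446 ± 0.0902 CPM per kb in control islets. Mcl1 made up 73.5% and 74.0% of the summed level of the 3 pro-survival members in cytoEV islets and 69.5% and 74.2% in control islets.

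The summed pro-survival level was 40.7 and 39.4 CPM per kb in cytoEV islets, against 45.4 and 50.4 CPM per kb in control islets. The groups did not overlap. The summed pro-death level was 45.0 and 47.3 CPM per kb in cytoEV islets, against 55.4 and 43.1 CPM per kb in control islets. In control replicate 1 Bax had 38.6 and Bad 6.58 CPM per kb, against 30.4 and 4.13 CPM per kb in control replicate 2. The ratio of the pro-survival to the pro-death sum was 0.905 and 0.833 in cytoEV islets, against 0.819 and 1.17 in control islets. The cytoEV ratios lay between the control ratios, so no difference in this balance was larger than the spread of the control pair. The ratio of Bcl2l1 to Bid CPM, picked after the values were seen, was 8.29 and 8.10 in cytoEV islets and 14.3 and 14.6 in control islets. That of Bcl2l1 to Bax was 1.004 and 0.902 in cytoEV islets and 1.01 and 1.19 in control islets. The Bcl2 to Bax ratio was 0.0999 and 0.0667 in cytoEV islets and 0.0575 and 0.0973 in control islets, where the groups overlapped. The Mcl1 to Bcl2l11 ratio was 4.77 and 5.35 in cytoEV islets and 6.45 and 7.15 in control islets. Only the ratio of the sums was planned, the ratios of single pairs were not, and ratios over members carry no test here.

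**Figure D3:**
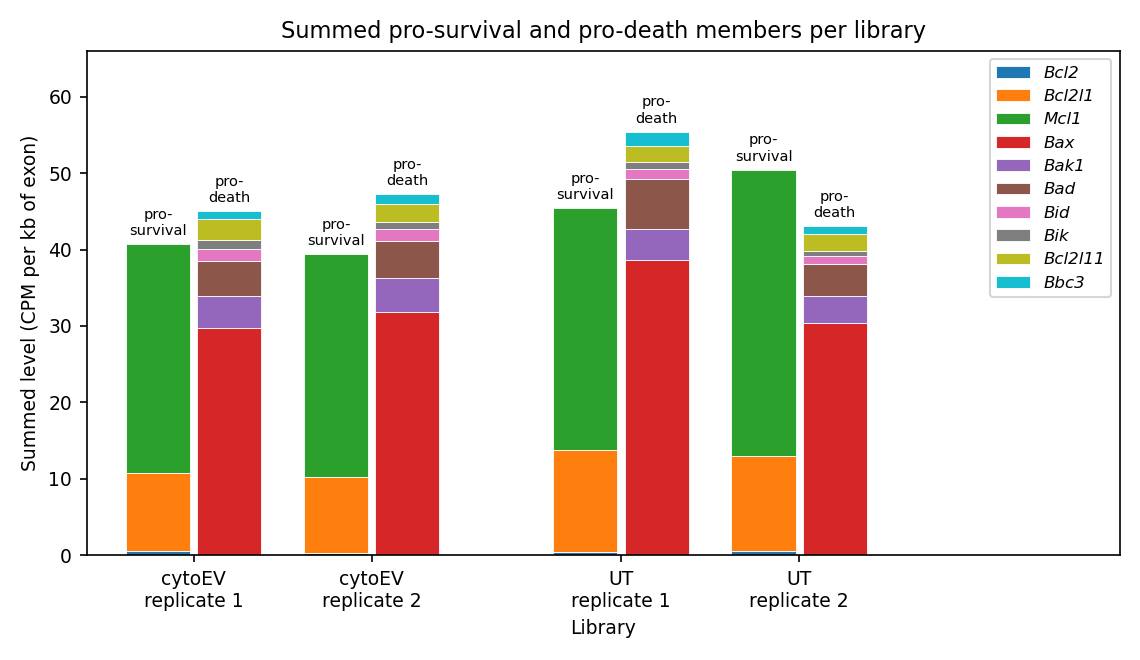
Summed level in CPM per kb of exon of the pro-survival members (left bar of each pair) and the pro-death members (right bar) in each library, split by gene. The pro-survival bars are 40.7 and 39.4 in cytoEV islets and 45.4 and 50.4 in control islets, and the tallest pro-death bar, 55.4, is control replicate 1.

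Outside the 10 members, of 5 other pro-survival genes 3 were tested and 0 called. Bcl2l2, which encodes BCL-W, was as abundant per kb as Mcl1 and level across the groups, with 31.4 and 31.0 CPM per kb in cytoEV islets and 31.96 and 32.6 CPM per kb in control islets. Of the exon bases of Bcl2l2, 13.3% also lie in Gm20521 on the same strand. Bcl2a1b, of the NF-kB-responsive A1 genes, had the smallest p, with 5.22 and 5.34 CPM in cytoEV islets, against 3.95 and 4.05 CPM in control islets (log2 change 0.33 ± 0.12 SE, limma adjusted p = 0.134). Of its 50-base stretches, 79.2% recur elsewhere, as in Bcl2a1d, so its separate value is uncertain. Bcl2l10 was at 0 in both cytoEV libraries, which allows up to 0.0217 and 0.0220 CPM for counting error only. In the control libraries it was at 0 and 0.0192 CPM, so the groups overlapped. Of 4 other pro-death genes (Bok, Bmf, Hrk and Pmaip1) 1 passed the filter, Bmf, with 15.4 and 17.4 CPM in cytoEV islets, against 14.2 and 15.4 CPM in control islets (limma adjusted p = 0.509). Hrk, studied with Bbc3 in rodent beta cells, had between 0.131 and 0.378 CPM.

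Of 7 relatives of mixed role 4 were tested and 1 fell, while limma called 3.51% of all genes tested lower. Bnip3, a mitochondrial protein gene of the hypoxia response that also serves mitophagy, had 89.9 and 86.8 CPM in cytoEV islets, against 155.5 and 181.1 CPM in control islets. Both cytoEV libraries were far below both control libraries, and the log2 change was -0.92 ± 0.10 (SE, limma adjusted p = 0.000917). Its relative Bnip3l had 72.2 and 67.3 CPM in cytoEV islets and 71.7 and 79.2 CPM in control islets (limma adjusted p = 0.530).

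In a list for mitochondrial apoptosis, 1 of 17 tested genes rose and 0 fell in limma, which called 6.67% of all genes tested. The list also holds channel and apoptosis inhibitor genes, which are not all downstream of the mitochondrion. Its median of -0.02 was close to the 0.01 of all genes. Birc3, which encodes the apoptosis inhibitor cIAP2, had 25.4 and 24.5 CPM in cytoEV islets, against 13.6 and 13.2 CPM in control islets (log2 change 0.85 ± 0.10 SE, limma adjusted p = 0.00172). The pore channel genes Vdac1, Vdac2 and Vdac3 and the initiator Apaf1 did not pass, with log2 changes between -0.0704 (Apaf1) and -0.00488 (Vdac1).

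Of 8 tested genes that feed death receptor signals to Bid, 1 rose and 1 fell, while limma called 6.67% of all genes tested. Tnfsf10, the gene of the death ligand TRAIL, had 46.5 and 43.1 CPM in cytoEV islets, against 7.72 and 9.41 CPM in control islets (limma adjusted p = 1.38e-05). Tnfrsf1a, the gene of a TNF receptor, had 54.2 and 58.3 CPM in cytoEV islets, against 91.5 and 81.2 CPM in control islets (limma adjusted p = 0.00802, and 0.128 without cytoEV replicate 1). Casp8 and the inhibitor gene Cflar did not pass, with log2 changes of 0.16 and -0.14.

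Of 16 genes of p53 and its targets 2 rose and 1 fell, while limma called 6.67% of all genes tested. Trp53 itself had a log2 change of 0.21 (limma adjusted p = 0.280). Trp53inp1 had 93.0 and 84.1 CPM in cytoEV islets, against 54.2 and 67.6 CPM in control islets (limma adjusted p = 0.0326). Sesn1, a stress-induced metabolic regulator, had 49.3 and 50.5 CPM in cytoEV islets, against 37.6 and 39.2 CPM in control islets (limma adjusted p = 0.0482). Cdkn1a, which encodes the cell cycle inhibitor p21, had 36.05 and 38.3 CPM in cytoEV islets, against 50.01 and 47.4 CPM in control islets (limma adjusted p = 0.0494). All 3 calls were lost without either cytoEV library, and those of Sesn1 and Cdkn1a also in edgeR (adjusted p = 0.0515 and 0.0581). Limma adjusted p without 1 cytoEV library lay between 0.0632 (Trp53inp1 without cytoEV replicate 2) and 0.7005 (Cdkn1a without cytoEV replicate 1).

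Of 9 genes of endoplasmic reticulum stress that acts on BH3-only genes, 0 rose and 3 fell, with a list median of -0.29. Over all genes tested limma called 3.51% lower, and the median was 0.01. Atf3 had 3.82 and 3.56 CPM in cytoEV islets, against 8.90 and 11.0 CPM in control islets (log2 change -1.22 ± 0.13 SE, limma adjusted p = 0.00108). Ddit3, the gene of the pro-apoptotic factor CHOP, had 37.5 and 40.0 CPM in cytoEV islets, against 64.2 and 54.6 CPM in control islets (limma adjusted p = 0.0134, and 0.143 without cytoEV replicate 1). Ppp1r15a had 56.1 and 57.6 CPM in cytoEV islets, against 84.0 and 74.8 CPM in control islets (limma adjusted p = 0.0224, and 0.336 and 0.222 without cytoEV replicates 1 and 2).

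Of 19 kinases and factors known to act on members 1 rose and 2 fell, while limma called 6.67% of all genes tested. Jun, of the JNK pathway, had 10.8 and 11.5 CPM in cytoEV islets, against 29.6 and 24.8 CPM in control islets (log2 change -1.21 ± 0.12 SE, limma adjusted p = 0.000585). Stat3, which can raise Bcl2l1 and Mcl1, had 231.4 and 235.7 CPM in cytoEV islets, against 360.1 and 350.3 CPM in control islets (limma adjusted p = 0.00274, and 0.0772 and 0.0513 without cytoEV replicates 1 and 2). Pim2, a kinase that phosphorylates BAD, had 68.5 and 68.5 CPM in cytoEV islets, against 47.5 and 44.7 CPM in control islets (limma adjusted p = 0.00765, and 0.133 and 0.121 without cytoEV replicates 1 and 2). Of the ubiquitin enzymes for MCL1 and BIM 6 were tested and 0 called by limma. Fbxw7, which marks MCL1 for degradation, had the smallest p, with 38.3 and 47.0 CPM in cytoEV islets, against 51.2 and 60.0 CPM in control islets (limma adjusted p = 0.114, and 0.0233 in DESeq2). Among all these called genes, Bnip3, Birc3, Tnfsf10, Atf3 and Jun passed under each of the 16 alternatives run.

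**Figure D4:**
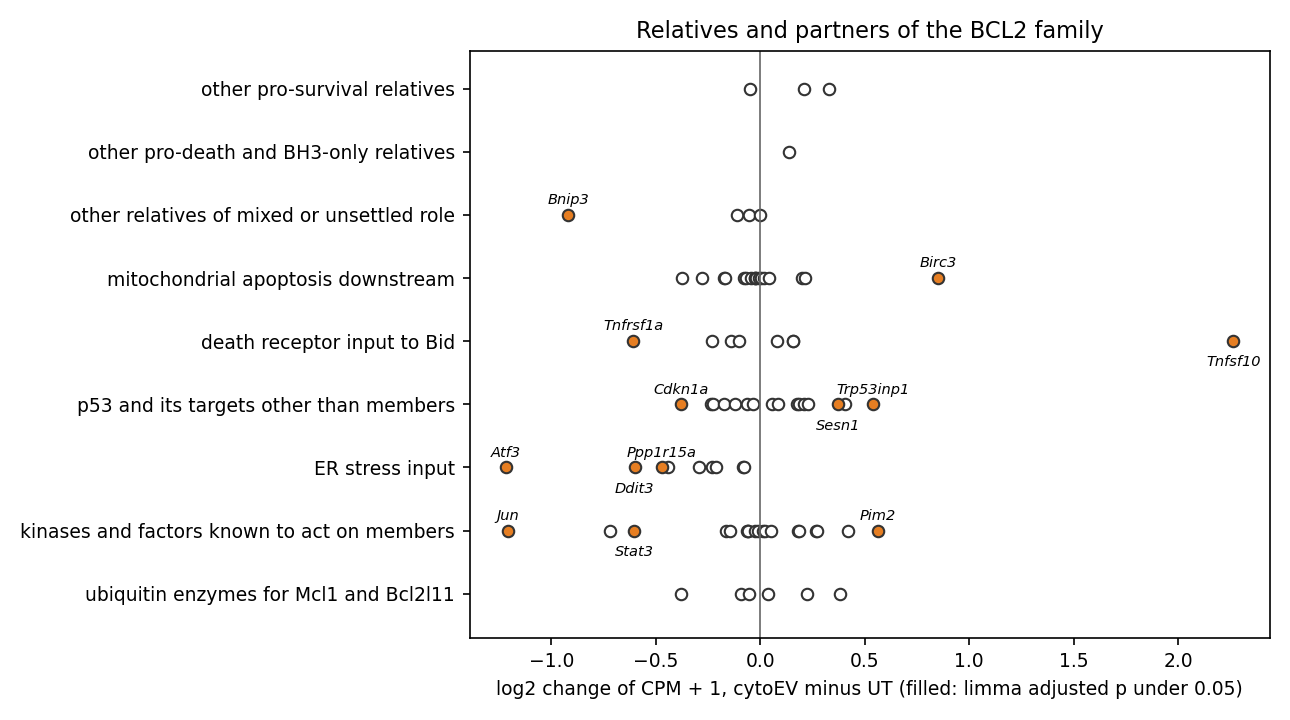
Log2 change of CPM + 1 (cytoEV minus UT) of each tested relative, partner or regulator of the family, by list. Filled and named points passed limma at an adjusted p under 0.05: Tnfsf10, Birc3, Pim2, Trp53inp1 and Sesn1 are right of 0, and Atf3, Jun, Bnip3, Tnfrsf1a, Stat3, Ddit3, Ppp1r15a and Cdkn1a are left of it.

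The direction of 6 members held under each alternative run. Bcl2l1 stayed between -0.41 and -0.31 on the log2 scale, and Bid stayed between 0.22 and 0.44. With all 4 libraries in the fit, Bcl2l1 passed under median centring, DESeq2 and a crossed replicate block, and Bid under the crossed block only. That block pairs libraries of different number, was added after the data were seen and called 1469 genes higher and 1434 lower. Median centring called 333 genes higher and 513 lower, and DESeq2 called 12.4% of all genes tested. Mcl1, Bak1, Bik and Bcl2l11 also kept their sign. With all 4 libraries Mcl1 passed under the crossed block only, and Bak1, Bik and Bcl2l11 passed under 0 alternatives. Bcl2, Bax, Bad and Bbc3 changed sign with a library left out.

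**Figure D5:**
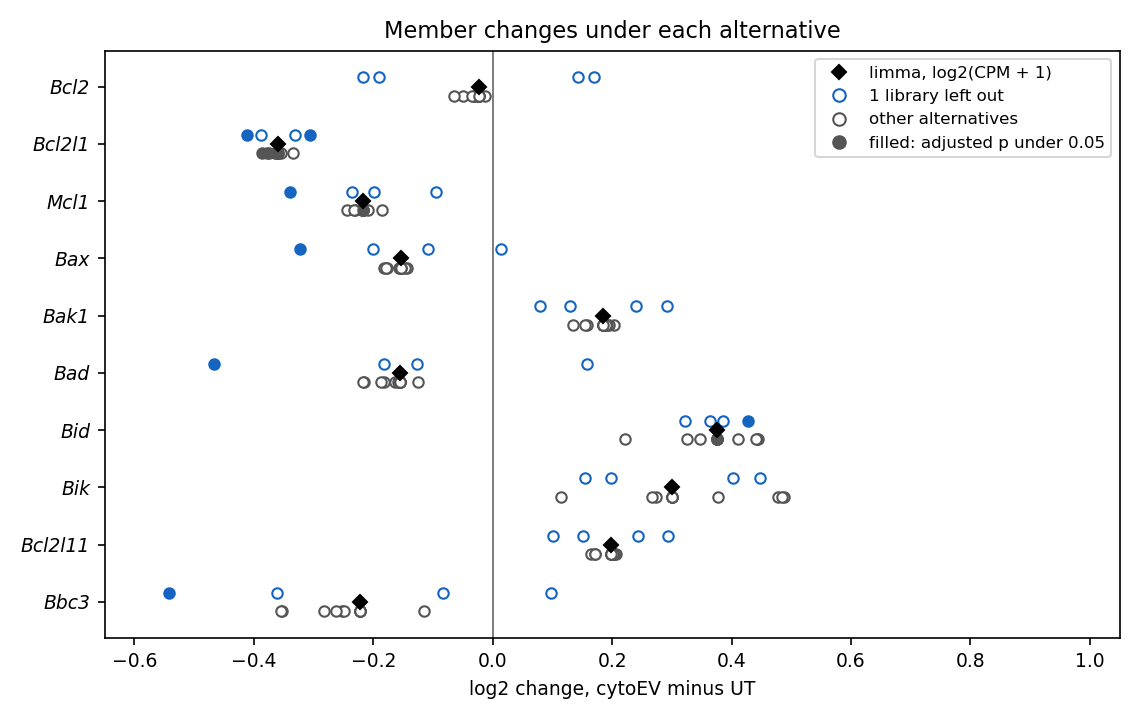
Log2 change (cytoEV minus UT) of each member under the test used (diamond), with a library left out (blue) and under the other alternatives (grey), filled where the adjusted p was under 0.05. Filled points for Bax, Bad and Bbc3 each come from leaving out control replicate 2, and these genes have a point right of 0 when control replicate 1 is left out.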

How the data were processed

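Poly(A)-selected RNA of 4 islet samples was sequenced with a stranded kit from 200 ng of RNA, per the labels' protocols. Named in the submitters' processing notes, in no order and without roles, are mm10, StringTie 2.1.3, TopHat2 2.0.6, edgeR 3.1.1 and R 3.6.1. CPM values were deposited by the authors per gene and library, each column summing to 1000000, with no composition factor in them. The 2 control columns were assigned to the untreated samples by name and number. All values above 0 (100.0%, within 0.01 of a read) came out as a whole number of reads, between 129726756 and 156183968 a library, and these recovered counts went into DESeq2 1.42.0 and edgeR's quasi-likelihood test (4.0.16, TMM).

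The 12780 genes that reached 1 CPM in 2 or more libraries entered limma 3.58.1 (R 4.3.3), on log2(CPM + 1), a scale that understates the change of low genes, with an intensity trend, no covariate, 2 residual degrees of freedom, and p adjusted by Benjamini-Hochberg across every tested gene and called under 0.05. The tests were tried on simulated counts. Coordinates, exon lengths and 50-base stretches came from GENCODE M21 (GRCm38, also called mm10). Promoters came from RefSeq on GRCm38.p6. Poisson intervals are 95% and cover counting error only. Tables and plots used pandas 2.3.3 and matplotlib 3.10.9 under Python 3.11.15.

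The members and gene lists were chosen with earlier results of these data known, and some list genes are not reported here. Genes named outside the members were called genes, at most 4 a list with the smallest p, or the 1 with the smallest p where none was called. Genes with the most similar pattern were to be named for called members, of which there were 0. Bcl2l2, Bcl2l10, Bcl2l13, Bnip3l, Hrk, Apaf1, the Vdac genes, Casp8, Cflar, Trp53, Gpr137 and Ggnbp1 were chosen after their values were seen. Alternatives were both count tests, each library left out, a replicate block, other pseudocounts (0.1, 0.5, 5), other filters (none, 5 CPM), median centring, quantile normalization and a fit without a trend. A crossed replicate block was added after the data were seen. Whether the counting used strand or how it treated shared reads was not in the sources used.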

Additional observations from a re-analysis of the deposited data

How the results depend on the processing

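Over 157 values of the 10 members under the alternatives, 140 kept direction and side of the threshold, 12 passed and 5 changed sign. The sign changes were Bcl2 at 0.17 without cytoEV replicate 2 and 0.14 without control replicate 2, and Bax, Bad and Bbc3 without control replicate 1. With a library left out the log2 change ran over -0.22 to 0.17 for Bcl2, -0.32 to 0.014 for Bax, -0.47 to 0.16 for Bad and -0.54 to 0.098 for Bbc3. Members called higher numbered 0 to 1 and lower 0 to 4 with a library left out, and the genes called over all those tested 215 to 2408 higher and 249 to 2023 lower. Median centring and DESeq2 each called 1 member lower. With no filter 149 genes were higher and 179 lower, with a filter of 5 CPM 252 were higher, and DESeq2 called 745 and 845. Bcl2, Bik and Bbc3 were not tested at 5 CPM. Samples of 1 number are not shown to be pairs: the deviations of same-numbered libraries correlated at -0.22. A replicate block gave 481 and 512 genes and 0 members either way. Crossed, an alternative added after seeing the data, it gave 1469 and 1434 genes, 1 member higher and 2 lower. The ratio of summed pro-survival to pro-death level was 0.869 in cytoEV islets and 0.995 in control islets. It was 1.5003 and 1.79 in CPM, 0.228 and 0.276 without Mcl1, and 2.61 and 3.35 without Bax. With the longest transcript as length it was 0.738 in cytoEV islets and 0.849 in control islets. Of 256 values of the 16 named pathway genes, alternatives chosen after their calls were known, 33 lost the call, 4 gained it and 0 changed sign. Why the alternatives differed was not tested.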

Other observations

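Values of 3 genes of the regulator lists lay far apart within a group, and these were picked after their values were seen. Mdm4, an inhibitor of p53, had 110.1 and 25.7 CPM in the cytoEV libraries and 19.97 and 108.4 CPM in the control libraries. Ywhaz, whose product is a 14-3-3 protein that holds phosphorylated BAD, had 74.7 and 176.6 CPM in the cytoEV libraries and 175.2 and 206.0 CPM in the control libraries. Cul5, a ubiquitin ligase subunit gene, had 63.2 and 57.2 CPM in the cytoEV libraries and 32.6 and 64.7 CPM in the control libraries. None of these 3 passed limma (adjusted p = 0.914, 0.214 and 0.412).

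Fas, the gene of a death receptor that feeds Bid, had 0.674 and 0.463 CPM in cytoEV islets and 0.463 and 0.429 CPM in control islets, below the filter. Pmaip1, the gene of the BH3-only protein NOXA, had between 0.723 and 0.797 CPM in all 4 libraries. In cytoEV and control islets alike, Bcl2l2 and Mcl1 were the pro-survival genes with the highest level per kb among those listed.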
